A study of Homo sapiens with 6 samples.

Results

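PABPC4, a cytoplasmic poly(A)-binding protein, was immunoprecipitated from HepG2 cells, a human hepatocellular carcinoma line, and the RNA recovered with it was sequenced beside RNA recovered with rabbit IgG. All 58302 genes of the authors' deposited comparison of the antibody with IgG were taken, with no choice by value. Of these genes, 21455 had at least 1 read in the 4 libraries and a deposited p-value. The 2 PABPC4 libraries came from cells labelled as overexpressing PABPC4. Of the 2 IgG libraries, 1 came from such cells and 1 from cells labelled as overexpressing PABPC1, and the authors pooled both as the control. No cells without an overexpressed poly(A)-binding protein were among them, and one of the controls differs from the PABPC4 libraries in genotype as well as in antibody. The sources used here do not say how the proteins were overexpressed. The labels do not say that libraries of a group came from separate cultures, so the p-values of limma, below, measure library-to-library spread alone, some of which may be technical. The series also holds 2 PABPC1 libraries, used here in limma to estimate that spread, scale the libraries and filter genes, and apart from limma to group genes.

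Cytoplasmic poly(A)-binding proteins bind the adenosine tail that most mRNAs gain at their 3′ end. On the tail they contact the translation initiation factor eIF4G and the deadenylases, and so take part in both translation and mRNA decay. PABPC1 is the main member of the family in most cells, and PABPC4, first described in activated T cells, is a relative with the same RNA-binding domains. Ribosomal RNA, 7SL RNA and replication-dependent histone mRNAs lack a long tail, and mRNAs made inside mitochondria carry short tails behind membranes.

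The libraries were shallow. Reads of single libraries were recovered exactly from the deposited folds and p-values, and the 2 libraries of an antibody are called A and B because their replicate numbers and, for IgG, their cells could not be told. The PABPC4 libraries held 850190 and 841327 reads on 18101 and 18115 genes, and the IgG libraries 133030 and 94235 reads on 9925 and 8857 genes. A single IgG read therefore weighs far more than a single PABPC4 read, and the IgG libraries set the precision. Ratios below compare a gene's share of PABPC4 reads with its share of IgG reads, summed over the libraries of each antibody, and carry exact 95% intervals, which cover counting error only. Medians and other log2 values over genes have 0.5 read added to each sum. HepG2 markers matched the label: the 16 hepatocyte markers all had reads, although TTR had only 3 and APOC3 only 8 with PABPC4 and APOB held 8208 of their 18093 PABPC4 reads. They summed to 10340.0 and 11056.3 reads per 1000000 of the library total (RPM) with PABPC4 and 4991.4 and 4934.5 with IgG.

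Most reads with PABPC4 fell on nuclear-encoded mRNA and most reads with IgG on mitochondrial rRNA. Protein-coding mRNA made up 74.6% and 73.2% of the PABPC4 libraries and 36.2% and 37.9% of the IgG libraries, a 2.0-fold higher share (95% interval 1.98 to 2.01). The 2 mitochondrial rRNAs made up 15.8% and 16.8% with PABPC4 and 56.3% and 54.2% with IgG. For both classes the antibodies lay far apart and libraries of 1 antibody close together. The mitochondrial rRNAs did not move together exactly: MT-RNR1, the small-subunit rRNA, stood at a ratio of 0.322 (95% interval 0.317 to 0.326) and MT-RNR2, the large-subunit rRNA, at 0.285 (0.282 to 0.287). Mitochondrial rRNA held 55.4% of the control reads, and its share sets the scale of every other ratio taken on library totals.

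With mitochondrial rRNA left out of the totals, the antibodies came close for nuclear-encoded mRNA, long non-coding RNA, pseudogenes and genes not matched to RefSeq (a ratio of 1.01). Protein-coding mRNA then made up 88.3% of PABPC4 reads and 83.0% of IgG reads, and long non-coding RNA 4.16% and 4.03%. Transcribed pseudogenes, many of them processed copies of mRNAs whose reads cannot be told from those of the parent, held 1.09% and 1.07%. Replication-dependent histone mRNAs, which end in a stem-loop, held 0.229% and 0.259%, a ratio of 0.886. Other classes stayed apart on this scale too. Mitochondrially encoded mRNA stood at a ratio of 0.522, nuclear copies of mitochondrial genes at 0.335, mitochondrial tRNA at 0.244, small nucleolar and other structural RNA at 0.252, 7SL RNA of the signal recognition particle, copies included, at 0.116 and immunoglobulin and T cell receptor segments, with 20 PABPC4 and 15 IgG reads, at 0.0954.

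**Figure D1:**
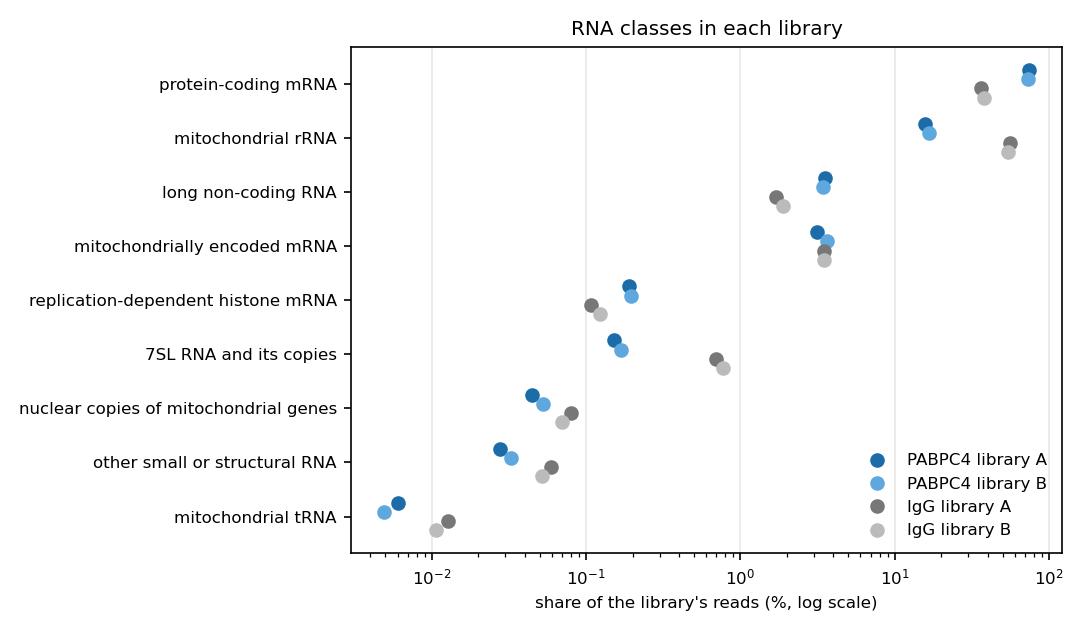
Share of each library's reads in 9 RNA classes, on a log axis; each point is 1 library (2 PABPC4 libraries in blue, 2 IgG libraries in grey), and 524 IgG reads of genes seen only with IgG, which could not be assigned to a library, are left out of the IgG points. Protein-coding mRNA lay at 74.6% and 73.2% with PABPC4 against 36.2% and 37.9% with IgG, while mitochondrially encoded mRNA overlapped between the antibodies.

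Which genes counted as enriched depended on the reference. Relative to library totals, the authors' deposited table called 1188 genes higher with PABPC4 (5.54% of those tested) and 193 lower (0.900%) at an adjusted p under 0.05. Its p-value equals a chi-square test on summed reads and so covers counting error alone. Of the 1188 higher calls, 1162 were protein-coding mRNAs, and 344 rested on fewer than 10 IgG reads. Of the 193 lower calls, 123 had fewer than 20 reads in all, and 26 had 0 PABPC4 reads. Among the 3060 genes with at least 100 summed reads, the table called 1173 higher (38.3%), 2954 had a ratio above 1, and in 2661 (87.0%) both PABPC4 libraries lay above both IgG libraries. In 46 (1.50%) both lay below. A ratio above 1 was therefore the rule among these genes, and their median was 2.09-fold (log2 1.06). Most summed reads were PABPC4 reads, so the filter itself favours genes that are high with PABPC4. The median was 1.96-fold over genes with at least 50 summed reads and 2.28-fold with at least 200. Over genes with at least 10 IgG reads it was 1.75-fold.

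Measured against that median gene, fewer genes were higher and more were lower. An exact binomial test of the summed reads against the median ratio, with Benjamini-Hochberg adjustment over the 21455 genes, called 102 genes higher (0.475%) and 284 lower (1.32%). All 102 were among the 1188 deposited higher calls. In the other direction, 182 of the 193 deposited lower calls were again lower, 33 of the 284 had a ratio above 1, and 9 genes called higher in the authors' deposited table were called lower here. Another test added the spread between libraries: limma (voom) on the reads of 6 libraries, scaled by the median of ratios, over the 7990 genes that reached 10 reads in 2 or more libraries. Its zero lay at a PABPC4 to IgG ratio of 1.76 (log2 0.82), somewhat below the median of the genes with at least 100 reads. By limma with Benjamini-Hochberg adjustment 180 genes were higher (2.25%) and 129 lower (1.61%), with 1391 at an unadjusted p under 0.05. Of the genes with at least 100 summed reads, limma called 150 higher (4.90%) and 63 lower (2.06%), and the 150 were all among the deposited higher calls. Here and below, "higher" or "lower by limma" and log2 values of limma refer to this zero at 1.76, also where the median gene is named beside limma. Otherwise "the median gene" is the ratio of 2.09. A p-value given with a gene is limma's adjusted p.

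These counts moved with single libraries. Without IgG library A the deposited test gave 370 higher and 135 lower calls, and without IgG library B 646 and 116. Lower calls also fell to 123 without PABPC4 library A and 119 without PABPC4 library B. The exact test gave 29 higher and 132 lower without IgG library A, 46 and 127 without IgG library B, and 63 higher without PABPC4 library A. Limma gave 56 higher and 78 lower without IgG library A and 79 higher without IgG library B. The PABPC1 libraries are outside the contrast but enter the spread, the scaling and the read filter. Leaving out PABPC1 library A or B gave 53 higher and 44 lower in either case. APOB, TOP2A, ATAD2, EIF5B and SF3B2, described below, were called by limma with any PABPC4 or IgG library left out, but not without either PABPC1 library (adjusted p from 0.0507 for EIF5B to 0.0927 for ATAD2).

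**Figure D2:**
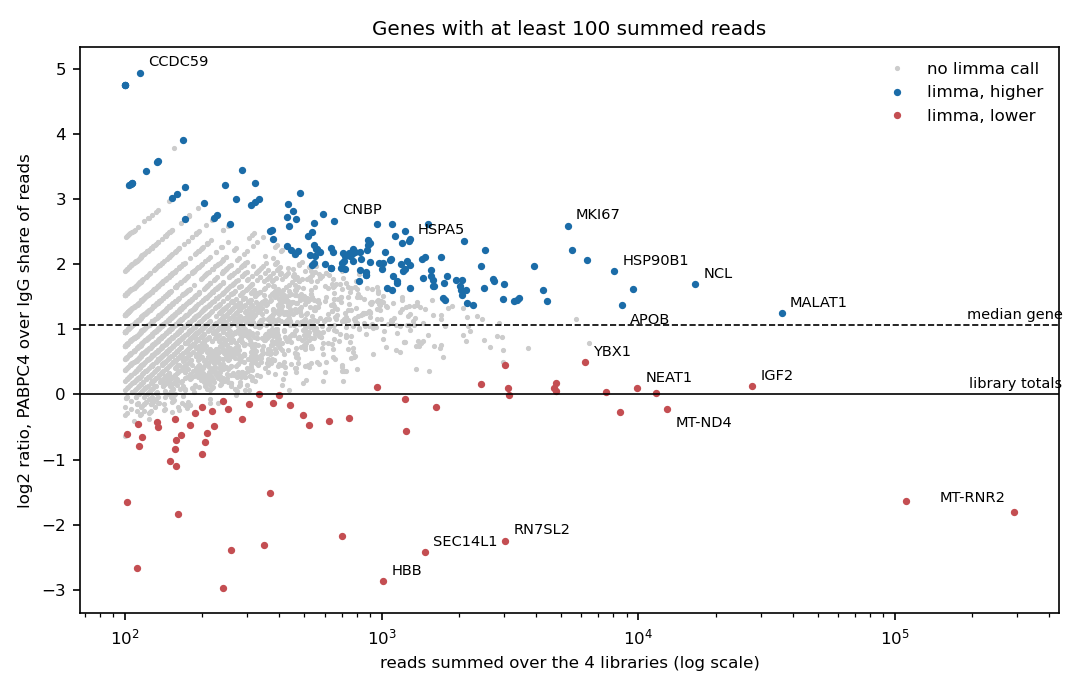
Log2 ratio of the PABPC4 to the IgG share of reads against reads summed over the 4 libraries (log axis), 1 point per gene with at least 100 summed reads; blue and red points are the limma calls higher and lower, the solid line marks equal shares of library totals and the dashed line the median gene at log2 1.06. Called genes above the median reach lower ratios as reads grow, from CCDC59 with 114 reads to MALAT1, and IGF2, NEAT1 and YBX1 lie between the lines.

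The highest ratios among genes with at least 100 reads that both the deposited table and limma called belonged to genes almost unseen with IgG. CCDC59, a coiled-coil protein, had 52 and 62 PABPC4 reads but 0 with IgG. This is 5.11-fold against a floor of 3 reads over the IgG group, with an exact lower 95% limit of 4.09. NIFK-AS1, an antisense RNA to a nucleolar protein gene whose reads cannot be told from its partner's without strand, XRCC2, of homologous recombination, and ZKSCAN5, a zinc finger protein, had 100 PABPC4 reads each, again with 0 for IgG. Each was 4.48-fold against that floor, with an exact lower 95% limit of 3.58. The next 6 had 1 IgG read each: RNMT, the mRNA cap methyltransferase, with 167 PABPC4 reads (ratio 22.4, 95% interval 3.97 to 891), YTHDF2, a reader of N6-methyladenosine, with 134 (18.0, 3.18 to 716), the kinase MAP3K13 with 132, GADD45GIP1 of the mitochondrial ribosome with 120, and WDR70 and the prefoldin subunit PFDN4 with 106 each. Their intervals span more than an order of magnitude, and their order is not resolved. Among the 10, the exact test against the median gene called RNMT alone (adjusted p = 0.0397). For the others its adjusted p ran from 0.0803 for CCDC59 to 0.448 for WDR70 and PFDN4. With so few IgG reads, these genes passed the filter of 100 summed reads through their PABPC4 reads. All 10 lost the limma call without IgG library A (adjusted p from 0.200 to 0.724) or IgG library B (0.0617 to 0.538). Without the library that held the single read, the 6 ratios could only be set against the floor of 3 reads, from 2.23 (GADD45GIP1 without IgG library A) to 4.38 (RNMT without IgG library B). Without the other IgG library they were 9.30 for RNMT, 7.47 for YTHDF2, 10.4 for MAP3K13, 9.44 for GADD45GIP1 and 5.91 for WDR70 and PFDN4. For the genes with 0 IgG reads, the values against the floor fell to between 1.86 and 2.99. Without PABPC4 library A or B, CCDC59, XRCC2 and ZKSCAN5 had too few reads for the fit and YTHDF2, MAP3K13, GADD45GIP1, WDR70 and PFDN4 had adjusted p-values between 0.0565 and 0.149.

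The 6 nuclear-encoded genes with the most PABPC4 reads gave better resolved values and split in direction. MALAT1, a nuclear long non-coding RNA that ends in a triple helix, had 20640.1 and 19884.1 RPM with PABPC4 and 8178.6 and 9009.4 with IgG. NCL, nucleolin of the nucleolus, had 9729.6 and 9134.4 RPM with PABPC4 and 2616.0 and 3353.3 with IgG. EIF3A, a subunit of initiation factor 3, had 5599.9 and 5204.9 RPM with PABPC4 and 1713.9 and 1825.2 with IgG. In each of these the PABPC4 libraries lay well above the IgG libraries, with ratios of 2.38 (95% interval 2.27 to 2.49, limma adjusted p = 8.79e-07), 3.23 (2.99 to 3.49, adjusted p = 1.10e-08) and 3.07 (2.78 to 3.40, adjusted p = 1.06e-06), all above the median gene by limma, by log2 0.42 ± 0.05 (SE), 0.87 ± 0.09 (SE) and 0.79 ± 0.10 (SE). APOB, the large apolipoprotein of liver lipoproteins, followed at 2.59 (2.35 to 2.87, limma adjusted p = 0.000355). IGF2, a fetal growth factor made by HepG2, had 14112.1 and 15132.0 RPM with PABPC4 and 12418.3 and 14676.1 with IgG. NEAT1, the scaffold RNA of nuclear paraspeckles, had 5157.7 and 5240.5 RPM with PABPC4 and 4780.9 and 4987.5 with IgG. For NEAT1 the PABPC4 libraries lay only just above the IgG libraries, and for IGF2 PABPC4 library A lay below IgG library B. IGF2 stood at 1.09 (95% interval 1.05 to 1.14), called higher by the authors' deposited table at an adjusted p of 9.79e-05 but lower than the median gene by limma (log2 -0.70 ± 0.05 (SE), adjusted p = 3.99e-11), and at 0.996 without IgG library A. NEAT1 stood at 1.07 (1.00 to 1.14) and was lower than the median gene by limma (adjusted p = 3.99e-11). The 2 nuclear RNAs MALAT1 and NEAT1 thus lay on opposite sides of the median gene. Of 8 nuclear long non-coding RNAs with at least 100 reads, the authors' deposited table called 4 higher. Of the 14 nuclear long non-coding RNAs with reads, 4 were called higher in the authors' deposited table (2 without IgG library A) and 0 lower.

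**Figure D3:**
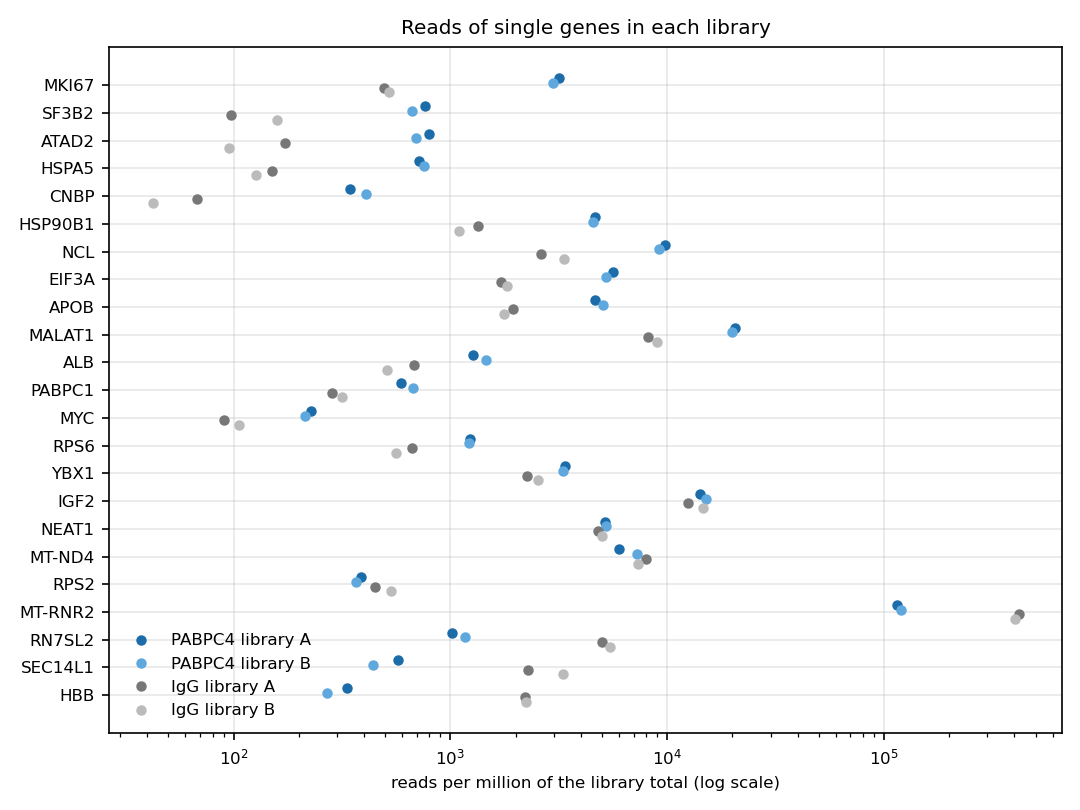
RPM for 23 genes, on a log axis; each point is 1 library (PABPC4 in blue, IgG in grey). From MKI67 down to YBX1 both PABPC4 libraries lie to the right of both IgG libraries, the antibodies come together at IGF2 and NEAT1, and from MT-ND4 down both PABPC4 libraries lie to the left.

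Among functions, mRNAs of cell division stood highest. Counts of calls in gene lists are to be read beside the share over all genes. Among genes with at least 100 reads, 38.3% were called higher in the authors' deposited table and 4.90% by limma. Only counts over list members with at least 100 reads compare with these shares. Of the 1188 deposited higher calls, 1173 lay in such genes, so counts over all members also follow read depth. The 30 mitosis and chromosome segregation genes with at least 100 reads had a median ratio of log2 1.86, 0.79 above the median gene, and their summed share was 4.31-fold higher with PABPC4. Of 45 members, 21 were called higher in the authors' deposited table and 7 by limma, with 0 lower by either. Of the 30 with at least 100 reads, 20 were deposited higher calls and 7 limma higher calls. MKI67, the Ki-67 protein that coats mitotic chromosomes, had 3171.1 and 2964.4 RPM with PABPC4 and 496 and 520 with IgG. CENPF, of the kinetochore, had 1258.5 and 1148.2 RPM with PABPC4 and 248 and 212 with IgG. For both genes the 2 groups lay several-fold apart, with ratios of 6.06 (5.04 to 7.36, limma log2 1.76 ± 0.16 (SE), adjusted p = 8.76e-10) and 5.16 (3.93 to 6.91, limma adjusted p = 1.20e-05). TOP2A, the topoisomerase that untangles sister chromatids, stood at 6.24 (4.40 to 9.16, limma adjusted p = 5.10e-05), and at 4.14 and 9.75 without IgG library A and B. At the ends of the list, CKAP2, a spindle protein with 1 read in each IgG library, stood at 11.3 (3.08 to 94.0, limma adjusted p = 0.0563) and KIF2A, a microtubule depolymerase, at 1.40 (0.730 to 3.0, adjusted p = 0.646). The deposited test called CKAP2 higher, but not without IgG library A (9.36-fold). Without IgG library A the list had 7 deposited-test and 4 limma calls, and without IgG library B 13 and 4. Genes of DNA replication and repair had a median of log2 1.46 over 12 members and 7 of 40 called higher in the authors' deposited table, 2 without IgG library A and 4 without IgG library B. All 7 deposited higher calls of this list lay among the 12 members with at least 100 reads. ATAD2, a bromodomain ATPase of chromatin, had 799 and 691 RPM with PABPC4 and 173 and 95.5 with IgG. Both PABPC4 libraries were several times the IgG libraries, a ratio of 5.29 (3.73 to 7.77, limma adjusted p = 0.000606), whereas MCM3 of the replicative helicase stood at 1.57 (1.12 to 2.28).

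Factors that build ribosomes came next, and the proteins of the finished ribosome did not follow them. For the 33 ribosome biogenesis factors with at least 100 reads the median was log2 1.57, and 27 of 50 were called higher in the authors' deposited table and 9 by limma, with 0 lower. All 27 and all 9 lay among these 33. Beside NCL, NOP58, of the box C/D snoRNP, had 281 and 252 PABPC4 reads and 5 and 6 IgG reads, a ratio of 6.51 (3.61 to 13.1, limma adjusted p = 0.00693). NPM1, nucleophosmin, stood at 2.61 (2.16 to 3.19, limma adjusted p = 0.0330), and the lowest member with enough reads, RRS1, at 1.43 (0.724 to 3.23). Without IgG library A the limma call of NOP58 was lost (adjusted p = 0.145), that of NPM1 was lost with IgG library A (0.0687) or B (0.108) left out, and the list had 14 deposited-test and 2 limma calls without IgG library A and 4 limma calls without IgG library B. RRS1 stood at 2.67 without IgG library A.

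The mRNAs of ribosomal proteins lay below the median gene. Over 38 large-subunit and 19 small-subunit mRNAs with enough reads, the median ratios were log2 0.76 and 0.71, so above library totals and -0.30 and -0.35 from the median gene. The median set by genes with at least 10 IgG reads was log2 0.80 and the zero of limma 0.82, both close to these values. The authors' deposited table called 20 of 45 and 5 of 32 higher and 0 lower, while limma called 1 large-subunit mRNA higher, 2 lower and 1 small-subunit mRNA lower. With at least 100 reads, 20 of 38 and 5 of 19 were deposited higher calls, beside 38.3% over all such genes. RPS2 had 388 and 366 RPM with PABPC4 and 451 and 531 with IgG, with both PABPC4 libraries below both IgG libraries (ratio 0.779, 95% interval 0.636 to 0.963, limma adjusted p = 4.25e-06). RPS6, the small-subunit mRNA with the most reads, had 1233.8 and 1213.6 RPM with PABPC4 and 662 and 562 with IgG, near the median gene at 1.97 (1.66 to 2.36, limma adjusted p = 0.631). RPL19, the large-subunit mRNA with the most reads, stood at 1.36 (1.20 to 1.55) and was lower by limma (adjusted p = 0.0337), but not with IgG library A (0.618) or B (0.226) left out. RPL18 was lower too (0.729, 0.485 to 1.13, limma adjusted p = 0.00708) but not without IgG library B (0.239), and RPL5 higher (2.90, 2.35 to 3.62, limma adjusted p = 0.0115) but not without IgG library B (0.220). At the upper end RPL22 stood at 3.42 (2.37 to 5.10, limma adjusted p = 0.0606). The deposited test called 7 large-subunit and 3 small-subunit mRNAs higher without IgG library A. Ribosomal protein genes have many processed pseudogenes, which could take part of their reads.

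Ribosomal protein mRNAs begin with a 5′ terminal oligopyrimidine tract, a C followed by pyrimidines, through which their translation is regulated, and mRNAs of some other translation and nucleolar proteins share it. The first 25 bases from the RefSeq start site (GRCh38.p14, transcript strand) are shown for mRNAs with and without the tract, with the tract in capitals, because the tract was the sequence feature by which the ribosomal protein mRNAs could be split.
EEF1A1: CTTTTTCgcaacgggtttgccgcca
RPS6: CTCTTTTCCgtggcgcctcggaggc
RPLP0: CCTTCTCTCgccaggcgtcctcgtg
NPM1: CTTTCCCTggtgtgattccgtcctg
MKI67: agaaggaagtggagggctgacgctg
HSP90B1: agtgggcggaccgcgcggctggagg
These windows lie at chr6:73521008-73521032, chr9:19380212-19380236, chr12:120201087-120201111 and chr10:128126399-128126423 on the minus strand and at chr5:171387849-171387873 and chr12:103930410-103930434 on the plus strand. A tract was counted where the start base was C and at least 4 pyrimidines followed, which held for 7.53% of the 2482 protein-coding genes with at least 100 reads that matched a RefSeq start, of 2947 such genes, and for 4.04% of all 27305 RefSeq starts. With and without the tract, the ribosomal protein mRNAs had like medians, log2 0.79 over 31 genes and 0.73 over 15. Other mRNAs stood at 1.02 over 156 genes with the tract and 1.08 over 2280 without it. Single members with a tract spread widely, from RPLP0 at 1.06 (0.742 to 1.57) and EEF1A1, elongation factor 1A, at 1.29 (1.09 to 1.55) to NPM1 above. RPLP0 moved to 0.714 without IgG library A and to 1.63 without IgG library B. A RefSeq start is 1 annotated position per gene and may not be the start used in HepG2.

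Translation factors and other mRNA-binding proteins spread around the median gene. For the 28 translation factors with at least 100 reads the median was log2 1.12. Of these 28, 15 were called higher in the authors' deposited table (also 15 of the 43 with any reads) and 2 by limma. These 2 were EIF3A and EIF5B, the subunit-joining GTPase, which had 1457.3 and 1328.9 RPM with PABPC4 and 323 and 393 with IgG and stood at 3.96 (3.17 to 5.01, limma adjusted p = 8.09e-05). ETF1, the release factor that reads stop codons, lay at the low end with 1.06 (0.694 to 1.70, limma adjusted p = 0.173). EIF2B4 had the highest ratio, 4.25 (2.21 to 9.40, limma adjusted p = 0.162), a call in the authors' deposited table that was lost without IgG library A (2.65-fold, against 7.47-fold without B). Of 51 cytoplasmic mRNA-binding and decay factors, 18 were called higher in the authors' deposited table, 3 were higher by limma and 1 lower, with 0 and 2 higher and 0 lower by limma without IgG library A and B. CNBP, a zinc-finger protein that binds G-rich mRNA, had 294 and 345 PABPC4 reads and 9 and 4 IgG reads (6.60, 3.83 to 12.5, limma adjusted p = 0.00473), with an adjusted p of 0.0519 without IgG library A. The lower one was YBX1, a main protein of untranslated mRNA particles, which had 3393.4 and 3298.4 RPM with PABPC4 and 2262.6 and 2525.6 with IgG. Its PABPC4 libraries lay above its IgG libraries, at 1.41 (1.29 to 1.54), called higher by the authors' deposited table at an adjusted p of 3.02e-12 and lower by limma (adjusted p = 0.00979), though not with IgG library A (0.396) or B (0.334) left out. All 18 deposited higher calls among mRNA-binding and decay factors lay in the 33 with at least 100 reads. The mRNAs of the poly(A)-binding protein family itself lay near the median gene. PABPC4 mRNA had 138 and 154 PABPC4 reads and 10 and 4 IgG reads (2.80, 1.64 to 5.19, limma adjusted p = 0.427), a deposited higher call that was lost without IgG library A (4.07) or B (2.30), and PABPC1 mRNA had 502 and 569 against 38 and 30 (2.12, 1.66 to 2.75, limma adjusted p = 0.572). Without IgG library A the deposited test called 6 translation factors and 7 mRNA-binding factors higher, and without IgG library B 15 and 11.

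Splicing factors had more members above than below the median gene by limma. The authors' deposited table called 37 of 54 higher, limma 11 higher and 1 lower, and their median was log2 1.14 over 51 members, close to the median gene. All 37 lay among these 51, which had at least 100 reads. SF3B2, of the U2 snRNP, had 765 and 664 RPM with PABPC4 and 97.7 and 159 with IgG, with a ratio of 5.80 (3.99 to 8.77, limma adjusted p = 0.000268). PNN, pinin of nuclear speckles and the member with the most reads, stood at 2.72 (2.36 to 3.14, limma adjusted p = 0.00682; 0.111 without IgG library A). The lower one, HNRNPK, a C-rich RNA-binding protein, stood at 0.918 (0.677 to 1.27, limma adjusted p = 0.00895; 0.116 and 0.130 without IgG library A and B). Limma called 3 higher without IgG library A and 7 without IgG library B, with 0 lower. Chromatin remodellers and histone modifiers had 25 of 53 called higher in the authors' deposited table, 4 by limma and a median of log2 1.28 over 43 members. All 25 lay among these 43, which had at least 100 reads. In this list ARID4B, a subunit of the Sin3 deacetylase complex, had 306 and 276 PABPC4 reads and 9 and 2 IgG reads (7.11, 3.94 to 14.3, limma adjusted p = 0.00641), with 16.2 and 5.09 and the limma call lost without IgG library A and B (adjusted p = 0.0920 and 0.0679). BPTF, a remodeller subunit and the member with the most reads, stood at 2.59 (2.01 to 3.39, limma adjusted p = 0.140). The chromatin list had 14 deposited-test and 1 limma call without IgG library A and 19 and 2 without IgG library B. Zinc finger genes had a median of log2 1.46 over 18 members and 11 of 51 higher in the authors' deposited table, but 0 by limma (7 at an unadjusted p under 0.05), and 1 and 4 by the deposited test without IgG library A and B. All 11 deposited higher calls lay among the 18 zinc finger genes with at least 100 reads. The most read zinc finger gene, ZNF638, stood at 3.11 (2.25 to 4.43, limma adjusted p = 0.108).

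Chaperone mRNAs included some of the best resolved higher genes. HSP90AA1, the inducible cytosolic HSP90, had 3398.1 and 2954.9 RPM with PABPC4 and 654 and 711 with IgG, and HSP90AB1, its constitutive relative, had 3299.3 and 3092.7 RPM with PABPC4 and 1435.8 and 1432.6 with IgG. The first stood at 4.69 (3.99 to 5.54, limma adjusted p = 2.88e-07) and the second near the median gene at 2.23 (1.99 to 2.50, limma adjusted p = 0.0672), and their intervals do not overlap. Of 32 chaperones, most of them cytosolic, 13 were called higher in the authors' deposited table and 2 by limma, the other being HSPA9, a mitochondrial HSP70, with a list median of log2 1.25, and the deposited test called 6 and 8 without IgG library A and B and limma 1 without IgG library A. All 13 deposited higher calls lay among the 22 of these chaperones with at least 100 reads. In the endoplasmic reticulum, HSP90B1, the HSP90 of that compartment, had 4668.4 and 4532.1 RPM with PABPC4 and 1338.0 and 1093.0 with IgG, and HSPA5, its HSP70, had 715 and 757 RPM with PABPC4 and 150 and 127 with IgG. Both were several-fold higher with PABPC4, at 3.72 (3.30 to 4.21, limma adjusted p = 1.51e-08) and 5.23 (3.68 to 7.68, limma adjusted p = 0.000201). The other folding factors of that compartment were nearer the median, which was log2 1.04 over 23 members, with 12 of 36 higher in the authors' deposited table and 3 by limma (2 without IgG library A or B). All 12 deposited higher calls lay among these 23, which had at least 100 reads. ERP29, a lumenal chaperone, stood lowest at 1.39 (0.948 to 2.11). Integrated stress response genes had a median of log2 0.96 over 12 members, with 4 of these 12 (4 of all 24) higher in the authors' deposited table and 1 by limma. ATF4, its central transcription factor, stood at 2.57 (2.09 to 3.20, limma adjusted p = 0.0650), and the 1 limma call, the stress protein NUPR1, at 4.76 (2.76 to 9.02, limma adjusted p = 0.0288; 3.21 and 7.25 and no call without IgG library A and B, where the deposited test called 2 and 2 members).

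mRNAs of secreted liver proteins spread widely around the median gene. ALB, serum albumin, had 1269.1 and 1467.9 RPM with PABPC4 and 677 and 509 with IgG, and its ratio of 2.25 (1.90 to 2.69, limma adjusted p = 0.244) was close to the median gene. SERPINA1, alpha-1 antitrypsin, stood at 1.90 (1.60 to 2.27, limma adjusted p = 0.800). Medians were log2 1.48 for 9 protease inhibitors, 1.37 for 11 coagulation and complement genes, 0.98 for 14 carriers and acute phase proteins and 0.91 for 5 apolipoproteins. In the authors' deposited table the higher calls were 7 of 19, 10 of 29, 10 of 23 and 2 of 17, and by limma 3, 0, 1 and 1, with 7 coagulation and complement genes higher at an unadjusted p under 0.05. Among members with at least 100 reads the deposited higher calls were 7 of 9, 10 of 11, 10 of 14 and 2 of 5. For the hepatocyte transcription factors, below, the count was 5 of 10. Over all genes with at least 100 reads the share was 38.3%. INHBE, an activin subunit among the carriers, was lower by limma and in the authors' deposited table, and 1 protease inhibitor was lower in that table, a call lost without either PABPC4 library or IgG library A. Limma called 2 carriers lower, and without IgG library A it called 0 higher and 1 lower. Within the carriers ORM1, an acute phase glycoprotein, stood at 6.42 (2.47 to 23.8, limma adjusted p = 0.116), while IGF2 lay lowest. ITIH3, an inter-alpha inhibitor, had 284 and 299 PABPC4 reads and 14 and 5 IgG reads (4.12, 2.62 to 6.90, limma adjusted p = 0.0340), with 6.50 and 3.28 and the call lost without IgG library A and B (adjusted p = 0.0694 and 0.258). APOA1, the protein of high density lipoprotein, stood at 1.08 (0.699 to 1.75) and had no limma call (adjusted p = 0.224). C3, the central complement protein, lay near the median gene with 2.15 (1.73 to 2.71, limma adjusted p = 0.422). Without IgG library A the deposited calls were 5, 1, 4 and 1, and without IgG library B 6, 4, 7 and 1. The hepatocyte transcription factors had a median of log2 1.00 and 5 of 23 higher in the authors' deposited table (1 and 2 without IgG library A and B), with HNF4A, the nuclear receptor of hepatocyte identity, at 1.69 (1.21 to 2.43, limma adjusted p = 0.887).

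Metabolic and short-lived mRNAs were mostly near or below the median gene. The median was log2 0.59 for 9 glycolytic enzymes, 0.95 for 13 enzymes of sterol and fatty acid synthesis, 1.01 for 10 nuclear-encoded respiratory genes, 1.06 for 12 proteasome subunits and 1.23 for 16 tRNA synthetases. Higher calls in the authors' deposited table numbered 3 of 20, 4 of 35, 2 of 65, 3 of 32 and 8 of 22. Among members with at least 100 reads these were 3 of 9, 4 of 13, 2 of 10, 3 of 12 and 8 of 16, beside 38.3% over all such genes. These became 1, 1, 0, 0 and 1 without IgG library A and 2, 1, 1, 0 and 4 without IgG library B. With all libraries limma called 1 synthetase higher, a call lost without IgG library A or B, and 1 glycolytic mRNA lower. That mRNA, PGK1, had 43 and 42 PABPC4 reads and 9 and 8 IgG reads (0.672, 0.396 to 1.21, limma adjusted p = 0.0122), and its call was lost with IgG library A (0.116) or B (0.146) left out. Another glycolytic mRNA, ENO1, stood at 2.14 (1.63 to 2.88) and SCD, the stearoyl-CoA desaturase, at 1.89 (1.54 to 2.33). Immediate early and AU-rich mRNAs had a median of log2 0.70 over 14 members, with 5 of 45 higher in the authors' deposited table (2 and 3 without IgG library A and B) and 3 lower by limma, namely ZFP36 and DUSP1, which help to shut off inflammatory and kinase signals, and KLF10, of which at most 1 was called with any 1 of the 4 libraries left out. ZFP36, DUSP1 and KLF10 did not reach 100 summed reads and are not among the 14, whereas all 5 deposited higher calls are. MYC had 194 and 180 PABPC4 reads and 12 and 10 IgG reads, with both PABPC4 libraries above both IgG libraries relative to library totals. Its ratio of 2.28 (1.49 to 3.69, limma adjusted p = 0.655) was close to the median gene, and the deposited test no longer called it without IgG library A (2.08) or B (2.45). KLF6, an immediate early zinc finger factor, stood at 3.64 (2.31 to 6.10, limma adjusted p = 0.0869) and FOSL2, an AP-1 subunit, at 0.931 (0.619 to 1.45, limma adjusted p = 0.0533). Polyadenylated histone variants had a median of log2 0.34 over 4 members, with H1F0, a linker histone, at 2.32 (1.94 to 2.79) and H3F3B, histone H3.3, at 1.16 (0.790 to 1.77). The tailless linker histone mRNA HIST1H1E, for comparison, had 689 and 651 RPM with PABPC4 and 361 and 414 with IgG and a ratio of 1.75 (1.41 to 2.20, limma adjusted p = 0.950). Its interval overlaps that of H1F0 in part, which does not show that the ratios are alike, and the 2 mRNAs were not tested against each other.

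The highest members of several lists rested on few IgG reads and had no limma call. ZNF518A, a zinc finger protein, stood at 7.22 (2.78 to 26.7, limma adjusted p = 0.0732) and CARS, the cysteinyl-tRNA synthetase, at 7.05 (1.90 to 59.0, limma adjusted p = 0.281). PSMD7, of the proteasome lid, stood at 6.09 (2.04 to 29.9, limma adjusted p = 0.188) and NR1H4, the bile acid receptor, at 6.01 (2.31 to 22.3, limma adjusted p = 0.158). C5, a complement protein, stood at 4.87 (1.86 to 18.1, limma adjusted p = 0.274) and TUG1, a long non-coding RNA, at 5.87 (1.96 to 28.8, limma adjusted p = 0.119). The authors' deposited table called all 6 higher. The deposited test called none of them without IgG library A, where NR1H4 stood at 9.97, C5 at 8.08 and TUG1 at 2.43. Without IgG library B it called ZNF518A alone, with TUG1 at 3.43 against the floor of 3 IgG reads. The calls of C5 and CARS were lost without PABPC4 library A and B, respectively. The lowest synthetase was VARS, for valine, at 1.24 (0.643 to 2.66), the lowest proteasome subunit PSMD3 at 0.854 (0.509 to 1.52) and the lowest nuclear-encoded respiratory gene NDUFS1, of complex I, at 0.877 (0.538 to 1.51), with 0 calls by either test.

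**Figure D4:**
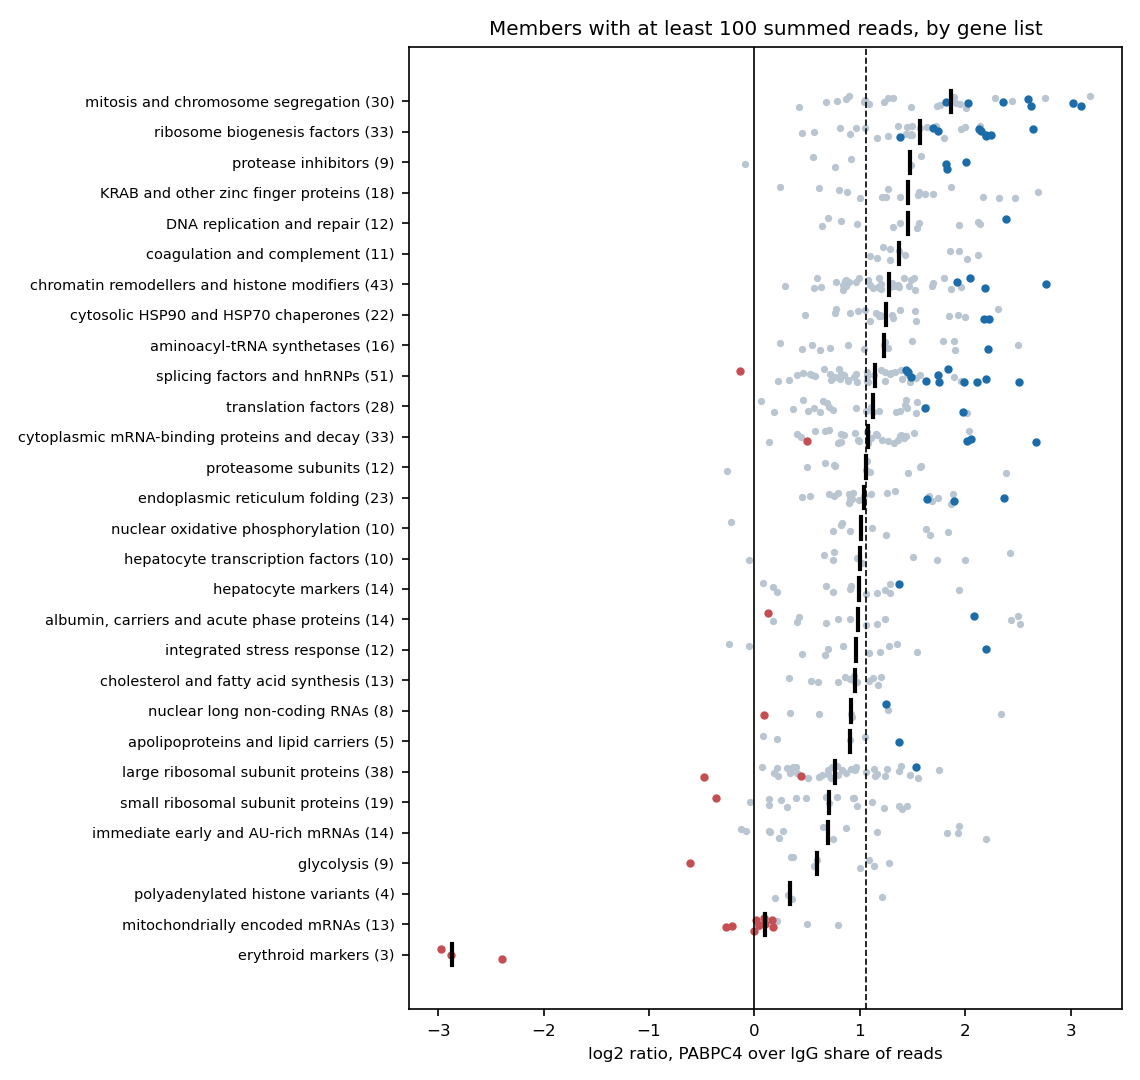
Log2 ratio of the PABPC4 to the IgG share of reads for each member with at least 100 summed reads of the 29 lists with at least 3 such members; the number of members is in brackets, black bars are list medians, blue and red points are limma calls higher and lower, and the solid and dashed lines mark library totals and the median gene. List medians run from log2 1.86 for mitosis down to 0.10 for mitochondrially encoded mRNAs and -2.87 for erythroid markers.

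mRNAs of the mitochondrial genome lay below the median gene. The 13 mitochondrially encoded mRNAs, which encode subunits of the respiratory chain, had a median of log2 0.10, close to library totals and -0.97 from the median gene. Limma called 10 of them lower and 0 higher, and 7 to 11 with any 1 of the 4 libraries left out, whereas the authors' deposited table called 1 higher and 2 lower. MT-ND4, of complex I, had 5995.1 and 7293.2 RPM with PABPC4 and 7998.2 and 7300.9 with IgG. Both PABPC4 libraries lay below both IgG libraries, though library B of each nearly touched, and its ratio of 0.861 (0.819 to 0.906, limma adjusted p = 1.65e-10) was the second lowest. MT-ND6, the only mRNA on the light strand, stood lowest at 0.832 (0.783 to 0.886, limma adjusted p = 2.54e-14), though without strand its reads cannot be told from those of the other strand. MT-ATP8 stood highest at 1.75 (1.28 to 2.46, limma adjusted p = 0.968). Its gene overlaps that of MT-ATP6, and its deposited call, the 1 higher call, was lost without PABPC4 library B (ratio 1.58) and without either IgG library (2.04 and 1.60). The deposited test called 6 of the 13 higher without PABPC4 library A, and no longer called MT-ND4 lower without PABPC4 library A or IgG library A. MTRNR2L12, a nuclear copy of the large mitochondrial rRNA, had 152 and 162 RPM with PABPC4 and 474 and 403 with IgG, a ratio of 0.353 (0.279 to 0.448), and copies so alike may take each other's reads.

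The 7SL RNAs and U3 lay far below library totals. RN7SL2, an RNA polymerase III transcript of the signal recognition particle, had 1018.6 and 1164.8 RPM with PABPC4 and 4983.8 and 5443.8 with IgG. RN7SL3, a second 7SL gene of nearly the same sequence, had 254 and 260 RPM with PABPC4 and 1120.0 and 1231.0 with IgG. IgG libraries stood several-fold above PABPC4 libraries in both, with ratios of 0.211 (0.196 to 0.227, limma adjusted p = 7.28e-26) and 0.221 (0.189 to 0.258, limma adjusted p = 9.45e-18), and the copies RN7SL4P and RN7SL5P followed at 0.202 and 0.158. SNORD3A, the U3 small nucleolar RNA, had 2 and 8 PABPC4 reads and 5 and 11 IgG reads, a ratio of 0.0840 (0.0341 to 0.197) that ran from 0.0334 without PABPC4 library B to 0.157 without IgG library B (0.0506 without IgG library A and 0.135 without PABPC4 library A). Of 19 polymerase III and other untailed small RNAs with reads, 5 were called lower in the authors' deposited table and 0 higher.

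Lower mRNAs included transcripts of other cell types. HBB, beta-globin of erythrocytes, had 334 and 270 RPM with PABPC4 and 2202.5 and 2228.5 with IgG. HBA2, an alpha-globin gene, had 85.9 and 52.3 RPM with PABPC4 and 549 and 531 with IgG, and HBA1, a near-identical copy between which and HBA2 reads may be split, had 128 and 51.1 RPM with PABPC4 and 459 and 488 with IgG. For each globin the IgG libraries lay far above the PABPC4 libraries, with ratios of 0.136 (0.120 to 0.155, limma log2 -3.71 ± 0.11 (SE), adjusted p = 2.55e-22), 0.128 (0.0984 to 0.166) and 0.191 (0.148 to 0.247), the last 0.109 without PABPC4 library A. The erythroid list summed to 575 and 386 RPM with PABPC4 and 3292.5 and 3321.5 with IgG, with 4 of 10 members lower in the authors' deposited table and AHSP at 0 reads in all 4 libraries. Leukocyte markers summed to 331 and 361 with PABPC4 and 857 and 1103.6 with IgG, with 11 of 23 lower in the authors' deposited table (7 without IgG library B), 5 by limma, and CD79A at 0. PTPRC, the leukocyte antigen CD45, had 9 and 16 PABPC4 reads and 15 and 18 IgG reads, a ratio of 0.102 (0.0580 to 0.176, limma adjusted p = 4.71e-09). In RPM it was far lower with PABPC4 in both libraries, whereas LYZ, lysozyme, stood at 1.00 (0.692 to 1.50). CSF3R, the receptor of a neutrophil growth factor, stood at 0.322 (0.208 to 0.512, limma adjusted p = 1.17e-06). Fibroblast markers summed to 58.8 and 51.1 with PABPC4 and 248 and 255 with IgG, with 4 of 11 lower in the authors' deposited table (2 without IgG library A) and COL5A1 at 0. COL6A3, a matrix collagen, held 48 of the 93 PABPC4 reads of that list and 4 of its IgG reads, a ratio of 1.61 (0.590 to 6.16, limma adjusted p = 0.873) that was 0.891 and 3.77 without IgG library A and B. Endothelial and platelet markers summed to 34.1 and 28.5 with PABPC4 and 105 and 63.7 with IgG, with 1 of 6 lower in that table (0 without either PABPC4 library or IgG library A, and 2 without IgG library B) and TEK, VWF and GP1BB at 0. Of these 4 lists, 0 members were higher in the authors' deposited table. Of its 1188 higher calls, 1173 were genes with at least 100 summed reads. Only 3 erythroid, 2 leukocyte, 0 fibroblast and 0 endothelial and platelet members reached that depth. For the other members a higher call was hardly possible, and its absence shows little. All libraries are labelled HepG2, and where these transcripts came from was not tested. In summed reads HBB had 511 with PABPC4 and 503 with IgG, HBA2 117 and 123, HBA1 152 and 107 and PTPRC 25 and 33, from libraries of unlike depth. The part of these transcripts in the lower calls was not tested.

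SEC14L1, a protein of the SEC14 lipid transfer family, stood among the globins and 7SL RNAs at the low end. It had 572 and 442 RPM with PABPC4 and 2285.2 and 3310.9 with IgG, which made it the 6th most abundant nuclear-encoded gene with IgG and the 178th with PABPC4. Its ratio was 0.187 (0.169 to 0.208, limma adjusted p = 1.55e-20), and it was log2 -3.25 ± 0.12 (SE) by limma. B2M, the light chain of class I histocompatibility molecules, followed at 0.282 (0.201 to 0.400, limma adjusted p = 4.52e-09), with 55 and 54 PABPC4 reads and 32 and 20 IgG reads.

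The ratio rose with exonic length and with the abundance of the mRNA in the PABPC1 libraries. Summed over protein-coding genes, the PABPC4 share was 0.818-fold the IgG share for exonic lengths under 1000 nucleotides (95% interval 0.757 to 0.884, 178 genes), 1.58-fold from 1000 to 2000 (1.53 to 1.63, 1013 genes), 1.95-fold from 3000 to 4000 (1.91 to 2.0, 1990 genes) and 2.26-fold from 14000 (2.20 to 2.32, 465 genes). The genes under 1000 nucleotides include HBA1 and HBA2, and without these the ratio was 1.11 (1.01 to 1.21); from 1000 to 2000 nucleotides it was 1.80 (1.74 to 1.87) without HBB. Exonic length is the union of exons in the authors' annotation, recovered for 13559 of 13750 genes, and not the length of the mRNA in HepG2. Genes with at least 100 reads showed less of this: their median was log2 0.25 over 11 genes under 1000 nucleotides, 0.98 over 79 genes from 1000 to 2000 and 1.14 over 204 genes from 14000. By reads in the PABPC1 libraries, which took no part in the ratio, the share was 0.902-fold for genes with none (0.835 to 0.975, 1946 genes), 1.46-fold from 3 to 6 reads (1.40 to 1.51, 2073 genes), 1.96-fold from 25 to 50 (1.93 to 2.0, 1553 genes) and 2.37-fold from 100 to 200 (2.33 to 2.42, 300 genes). It was 1.90-fold for the 53 genes with at least 400 reads (1.87 to 1.94), and 2.14-fold (2.09 to 2.18) without IGF2, which held 3035 of their 13640 IgG reads. These groups share libraries and differ in length and abundance at once, so the pattern is a description. Genes with at least 100 reads showed less of the PABPC1 pattern too. Their median was log2 1.73 over 10 genes with 6 to 12 PABPC1 reads, 0.99 over 1268 genes from 25 to 50, 1.23 over 99 genes from 200 to 400 and 1.10 over the 53 from 400. By GC content of the promoter window around the RefSeq start, medians of genes with at least 100 reads fell from log2 1.17 in the fifth with the lowest GC to 0.97 in the fifth with the highest.

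**Figure D5:**
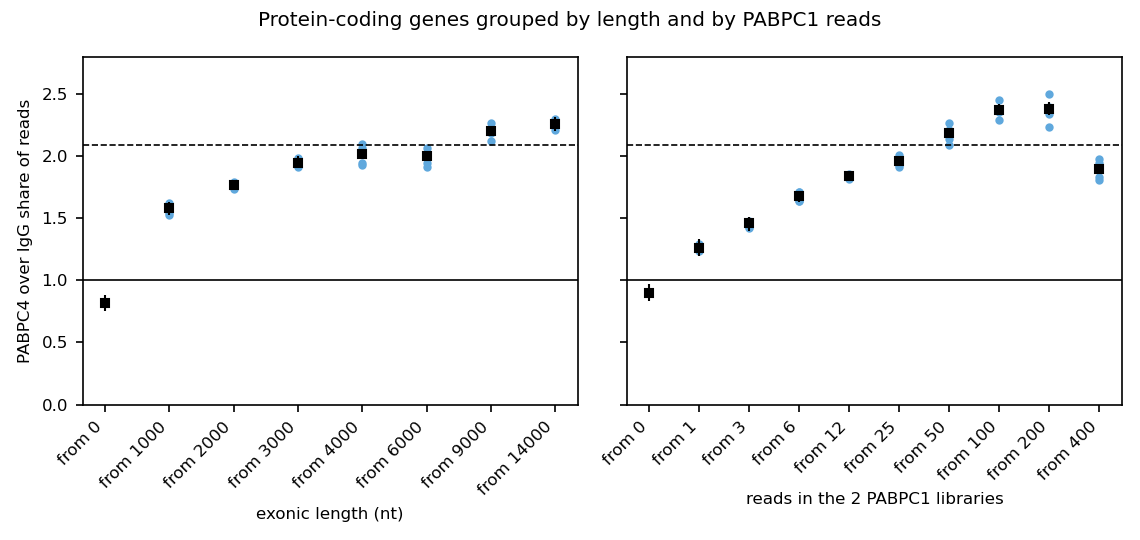
Ratio of the PABPC4 to the IgG share of reads, summed over protein-coding genes grouped by exonic length (left) and by reads in the 2 PABPC1 libraries (right); squares are summed libraries with exact 95% intervals, light points the 4 pairs of single libraries, left out where some genes had no split by library, and lines mark a ratio of 1 (solid) and the median gene (dashed, 2.09). The ratio climbs from 0.818 under 1000 nucleotides (1.11 without HBA1 and HBA2) to 2.26 from 14000, and from 0.902 with no PABPC1 read to 2.37 at 100 to 200 reads before it falls to 1.90.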

How the data were processed

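RNA recovered from HepG2 cells with antibodies to PABPC1 or PABPC4 or with rabbit IgG was sequenced after random-primed cDNA synthesis, per the labels' protocols. Alignment tools given by the submitters' processing notes are STAR 2.7.10a and Bowtie2 2.4.1, without their roles, beside featureCounts 2.0.1 and GRCh38. The sources used here do not give the strand of counting. Per the file headers, the deposited tables hold for each gene a fold change, which is a ratio, a p-value and a Benjamini-Hochberg adjusted p-value, with no column of single libraries. Recomputation showed that the deposited fold is the mean RPKM with the antibody over the mean IgG RPKM plus 0.005, and that the deposited p-value is a chi-square test with continuity correction on reads summed over libraries.

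Whole reads of single libraries were recovered from both tables, for 22140 genes by library and for 465 genes seen only with IgG as sums, with the 2 mitochondrial rRNAs taken as the remainder of the totals. For the other genes the recovered reads returned the deposited p-value to within 8.66e-13 (natural log of the ratio) and were the input to every test here other than the deposited calls. Depth is given with the results. The design had foreseen these reads, so no test was changed. Exact binomial tests and intervals used SciPy 1.17.1 in Python 3.11.15. Limma 3.58.1 in R 4.3.3 fitted 3 antibody groups to 6 libraries, with 0.5 read added by voom, and was tested on simulated data. Gene classes came from RefSeq (GRCh38.p14), matched by symbol for 16248 of 21455 genes and by synonym for 784. Sex-linked markers were left out.

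The members and the gene lists were chosen with earlier results of these data known. The genes named were drawn, not all of them described, from the 10 highest and 10 lowest ratios among genes with at least 100 reads called by both the deposited table and limma, the 6 nuclear-encoded genes with the most PABPC4 reads, the most read, highest and lowest genes of each list, the most read genes of each RNA class, and PABPC4, PABPC1, MYC, ALB and HBB. CENPF, TOP2A, NPM1, EIF5B, RPL5, HSP90AA1, HSPA9, RPLP0, EEF1A1, MT-RNR1, PTPRC, ZFP36, DUSP1, KLF10 and INHBE, and the genes under other observations, were chosen after their values were seen. Alternatives to the scaling, filters, tests and libraries are given in the closing section, and list calls with a library left out, named genes without a PABPC1 library and length groups without globins were added after seeing the data. A result taken by the rule for named genes is not reported here.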

Additional observations from a re-analysis of the deposited data

How the results depend on the processing

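Counts of calls moved with the reference, the read filter, the test and single libraries. The deposited calls, 1188 higher and 193 lower, became 1785 and 24 when only genes with at least 100 reads were adjusted together, and 131 and 425 with mitochondrial rRNA left out of the totals, where protein-coding mRNA held 88.3% of PABPC4 and 83.0% of IgG reads. With 1 library left out they ranged from 370 to 1177 higher and from 116 to 135 lower. The calls against the median gene, 102 and 284, became 209 higher when genes with at least 10 IgG reads set the median, and 1545 higher and 144 lower on library totals, with ranges of 29 to 74 and 127 to 261 without 1 library. The limma calls, 180 and 129, became 2290 and 54 on library totals, 506 and 8831 with no filter beyond 1 read, 61 and 46 with the 4 PABPC4 and IgG libraries alone, and 501 and 81 with limma trend, with ranges of 53 to 206 and 44 to 111. Beyond the fewer samples of the left-out fits and the added low-read genes of the unfiltered one, the cause was not tested.

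Against the median gene, 10 named genes called higher on library totals had ratios below it: HIST1H1E (0.838), HNF4A (0.810), IGF2 (0.524), MT-ATP8 (0.839), RPL19 (0.653), RPS6 (0.944), SCD (0.903), SERPINA1 (0.909), YARS (0.795) and YBX1 (0.676). Of these the exact test called only IGF2, RPL19 and YBX1 lower (adjusted p = 4.47e-206, 9.99e-08 and 1.00e-13). The others were not told apart from the median gene. IGF2 also fell below library totals without IgG library A (0.996) and stood between that and 1.18 (without IgG library B) with 1 library left out. No paired analysis was possible because the deposited columns carry no replicate numbers. Protein composition was not run. IgG depth of 133030 and 94235 reads limits single genes: 344 of the 1188 higher calls rested on fewer than 10 IgG reads.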

Other observations

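Genes that share the stem of their symbol were grouped where at least 10 had 100 reads or more, and the groups and genes below were picked after their values were seen, with no test. Over all genes the authors' deposited table called 5.54% higher, or 38.3% of those with at least 100 reads. The highest group medians belonged to CCDC genes, named for a coiled-coil domain (log2 1.60 over 25 genes, 16 of 117 with reads higher in the authors' deposited table and 3 by limma), KIF genes, the kinesin motors (1.49 over 18, 11 of 35 higher in that table and 1 by limma), and CEP genes of the centrosome (1.45 over 17, 9 of 39 and 1 by limma). The lowest belonged to ATP genes, mostly ATP synthase subunits and ion pumps (0.61 over 11, 1 of 81 higher in the authors' deposited table and 1 lower by limma), and UBE genes of ubiquitin transfer (0.62 over 11, 2 of 51 and 1 lower by limma). KTN1, kinectin of the endoplasmic reticulum, had 2292.4 and 2189.4 RPM with PABPC4 and 609 and 509 with IgG, so its groups lay several-fold apart, at a ratio of 3.95 (3.31 to 4.74, limma adjusted p = 2.51e-06). GOLGA4, a golgin of the trans-Golgi, stood at 4.71 (3.71 to 6.06, limma adjusted p = 4.19e-06), KIF5B, a kinesin heavy chain, at 4.37 (3.31 to 5.89, limma adjusted p = 0.000112), PCM1, of centriolar satellites, at 4.01 (2.95 to 5.59, limma adjusted p = 0.00378) and DSP, desmoplakin of cell junctions, at 4.19 (3.63 to 4.85, limma adjusted p = 1.87e-08). RRBP1, the ribosome-binding protein of the rough endoplasmic reticulum, stood at 3.05 (2.63 to 3.56, limma adjusted p = 5.75e-05). With any 1 of the 6 libraries left out these genes were still called by limma, except PCM1 without PABPC1 library A (0.114) or B (0.113).

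Some abundant mRNAs of HepG2 lay below the median gene by limma. FTL, the ferritin light chain, had 548 and 678 RPM with PABPC4 and 925 and 860 with IgG, with both PABPC4 libraries below both IgG libraries, at 0.682 (0.587 to 0.797, limma adjusted p = 2.16e-08). The deposited test called it lower, but not without IgG library A (0.713). FTH1, the heavy chain, followed at 0.728 (0.573 to 0.935, limma adjusted p = 0.000102), and HMGA1, a chromatin protein, at 0.879 (0.761 to 1.02, limma adjusted p = 2.57e-07). With any 1 of the 6 libraries left out these genes were still called by limma, except FTH1 without PABPC1 library A (0.0651) or B (0.0662). ACTB, beta-actin, stood at 0.956 (0.806 to 1.14, limma adjusted p = 6.85e-05), TMSB10, thymosin beta 10, at 0.903 (0.682 to 1.21, limma adjusted p = 0.0115) and FLNA, an actin crosslinker, at 0.722 (0.501 to 1.07, limma adjusted p = 0.00214). All 3 lost the call without IgG library A (adjusted p = 0.108, 0.595 and 0.0844) and without either PABPC1 library. The leukocyte genes S100A8, of neutrophils, and LCP1, an actin bundler, stood at 0.0919 and 0.0896. S100A8 ranged from 0.0427 without PABPC4 library A to 0.145 without IgG library A (0.141 without PABPC4 library B), and LCP1 from 0.0495 without IgG library A to 0.210 without IgG library B, where it had too few reads for limma.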
